A study of Mus musculus with 15 samples.

Results

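The genes described here encode the proteins of the cytosolic ribosome. They were chosen by symbol alone: every probe named Rpl or Rps followed by a digit, or Rpsa, Rplp0, Rplp1 or Rplp2, with the Rps6k kinases left out. The rule took 84 of the 25697 probes on the array, for 66 of its 16593 named genes. Messenger RNA was measured in the gastrocnemius, a mostly fast calf muscle, of 15 male C57BL/6 mice, an inbred laboratory strain. The young group was 5 months of age, the middle-aged group 17 months and the old group 28 months, with 5 mice in each and 1 Illumina MouseRef-8 bead array per mouse. The labels name no treatment and no engineered allele, and all mice were fed a standard chow without restriction. The study asked which responses of muscle to age are shared between mammals.

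The ribosome joins amino acids into protein. Its large subunit holds the catalytic centre, built mostly of ribosomal RNA, and its small subunit reads the messenger RNA. The Rpl proteins belong to the large subunit and the Rps proteins to the small one, while Rplp0, Rplp1 and Rplp2 form the stalk that binds translation factors. Cells make these proteins in near equal numbers, and surplus copies that find no place in a subunit are degraded. A few members have paralogs that can take their place: Rpl3l replaces Rpl3 in ribosomes of heart and skeletal muscle, and Rpl22l1 can stand in for Rpl22. Many ribosomal protein messenger RNAs start with a cytosine followed by a run of pyrimidines, called a 5′ terminal oligopyrimidine (TOP) tract, through which mTOR signalling and the protein Larp1 control their translation.

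Of the 66 genes, 32 belong to the large subunit, 23 to the small one and 3 to the stalk. A further 6 are paralogs (Rpl3l, Rpl7l1, Rpl22l1, Rpl36al, Rpl39l and Rps27l) and 2 are only named after a ribosomal protein (Rps19bp1 and Rps23rg1). A probe was kept when its detection p-value, which ranks its signal among control beads that match no gene, was under 0.05 on at least 5 arrays. This left 69 of the 84 probes, of which 66 were detected on all 15 arrays. Another 12 probes were detected on none. After the probe with the highest mean was taken for each gene, 58 members were tested: 29 of the large subunit, 21 of the small one, the stalk genes Rplp0 and Rplp1, 5 paralogs and Rps19bp1. The other 8 (Rpl6, Rpl14, Rpl17, Rpl39l, Rplp2, Rps23, Rps23rg1 and Rpsa) had no probe past the filter and have no level here. Signals of 10 members came from over 1 probe past the filter. Ribosomal protein genes have many processed copies elsewhere in the genome, and the files do not show which copies a probe can bind, so a value stands for whatever RNA the probe captured.

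The start sites show what the members share in sequence beyond their names. The RefSeq promoter table (build GRCm38.p6) held 57 of the 66 symbols. In 11 of these 57 genes (19.3%) a listed start base was a C followed by at least 4 bases that are C or T, against 2.67% of the 17492 protein-coding genes of the table and 0 of 69 genes for mitochondrial ribosomal proteins. With the first-listed start of each gene alone the share was 17.5%, against 2.17%. The longest run of C or T within 25 bases of any listed start had a median of 7 bases in the members and 5 bases in all protein-coding genes. The motif CCGGAAG, which factors of the ETS family such as GABP can bind, was sought on either strand of the 300-base windows of all listed starts. A window with it was found in 38.6% of the members, in 12.9% of all protein-coding genes and in 37.7% of the mitochondrial ribosomal protein genes. Genes with more listed starts have more chances of a match. These are matches of letters, and a start annotated a few bases away from the one used in muscle would hide a tract. Below are windows of 30 bases, with 10 bases before the annotated start and the tract from the start onward in capitals, for members that the results name and for Rpl35, which has the longest tract among those shown. Rpl3l and Rpl22l1, the paralogs that the results set beside Rpl3 and Rpl22, have no such tract at their annotated starts. Rpl22 has none either, like most members, and Rpl3 was not among the 57 symbols held.
Rps6 (chr4:86857348-86857377, minus strand): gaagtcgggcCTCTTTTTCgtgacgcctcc
Rpl35 (chr2:39005112-39005141, minus strand): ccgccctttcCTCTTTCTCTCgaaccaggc
Rpl35a (chr16:33056472-33056501, plus strand): gcttgccttcCTCTTTCCgccatcttggcg
Rpl38 (chr11:114668570-114668599, plus strand): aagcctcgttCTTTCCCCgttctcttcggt
Rps15a (chr7:118116128-118116157, minus strand): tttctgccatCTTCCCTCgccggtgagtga
Rps27 (chr3:90213629-90213658, minus strand): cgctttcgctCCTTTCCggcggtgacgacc
Rps21 (chr2:180257369-180257398, plus strand): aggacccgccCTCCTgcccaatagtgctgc
Rpl3l (chr17:24727816-24727845, plus strand): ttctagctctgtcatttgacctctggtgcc
Rpl22l1 (chr3:28805498-28805527, plus strand): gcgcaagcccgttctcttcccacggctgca

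Of all features tested, old mouse 3 was the lowest of the 15 arrays for 26.9% and the highest for 20.6%, where no other array passed 9.03% and 9.74%, so this array stood apart across the genome. Mean raw intensity ran between 328 and 621 and the probes detected between 11534 and 12593. Of the skeletal muscle fibre markers fixed for the tissue check, 15 of 16 were measured, and their summed normalised intensity lay between 359219 and 439985 on every array. Values below are log2 intensities after background correction and quantile normalisation. The number of mice limits the precision, and nothing in the labels names a slide, scan day or litter. Each mouse had 1 array, so spread between arrays holds both biological and technical error, and in bulk tissue fewer cells of a type and less RNA per cell cannot be told apart.

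Ribosomal protein genes lay evenly above and below 0 in old against young muscle when all arrays were used, and this balance depended on old mouse 3. Over the 58 members the median log2 difference, old minus young, was 0.0013, with 29 estimates above 0 and 29 below, beside a median of -0.02 over all 9470 features tested. By class, the median was 0.02 for the large subunit and 0.02 for the small one. The median of the members was -0.07 when arrays were scaled to a common median, 0.09 with the Z scores of the study's methods and 0.11 with array weights. With 1 array left out it ran between -0.05 and 0.13, the highest value being that without old mouse 3, so it has no settled sign. Only Rpl3 differed past the threshold (adjusted p under 0.05, limma with Benjamini-Hochberg adjustment over all features). That is 1 of 58 members called, higher in old muscle, where 3.31% of all features were called and 1.72% were called higher. No member was called lower, where 1.58% of all features were. In no member did the 5 old values all lie on one side of the 5 young values, where 2.15% of all features did so upward and 2.51% downward.

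**Figure D1:**
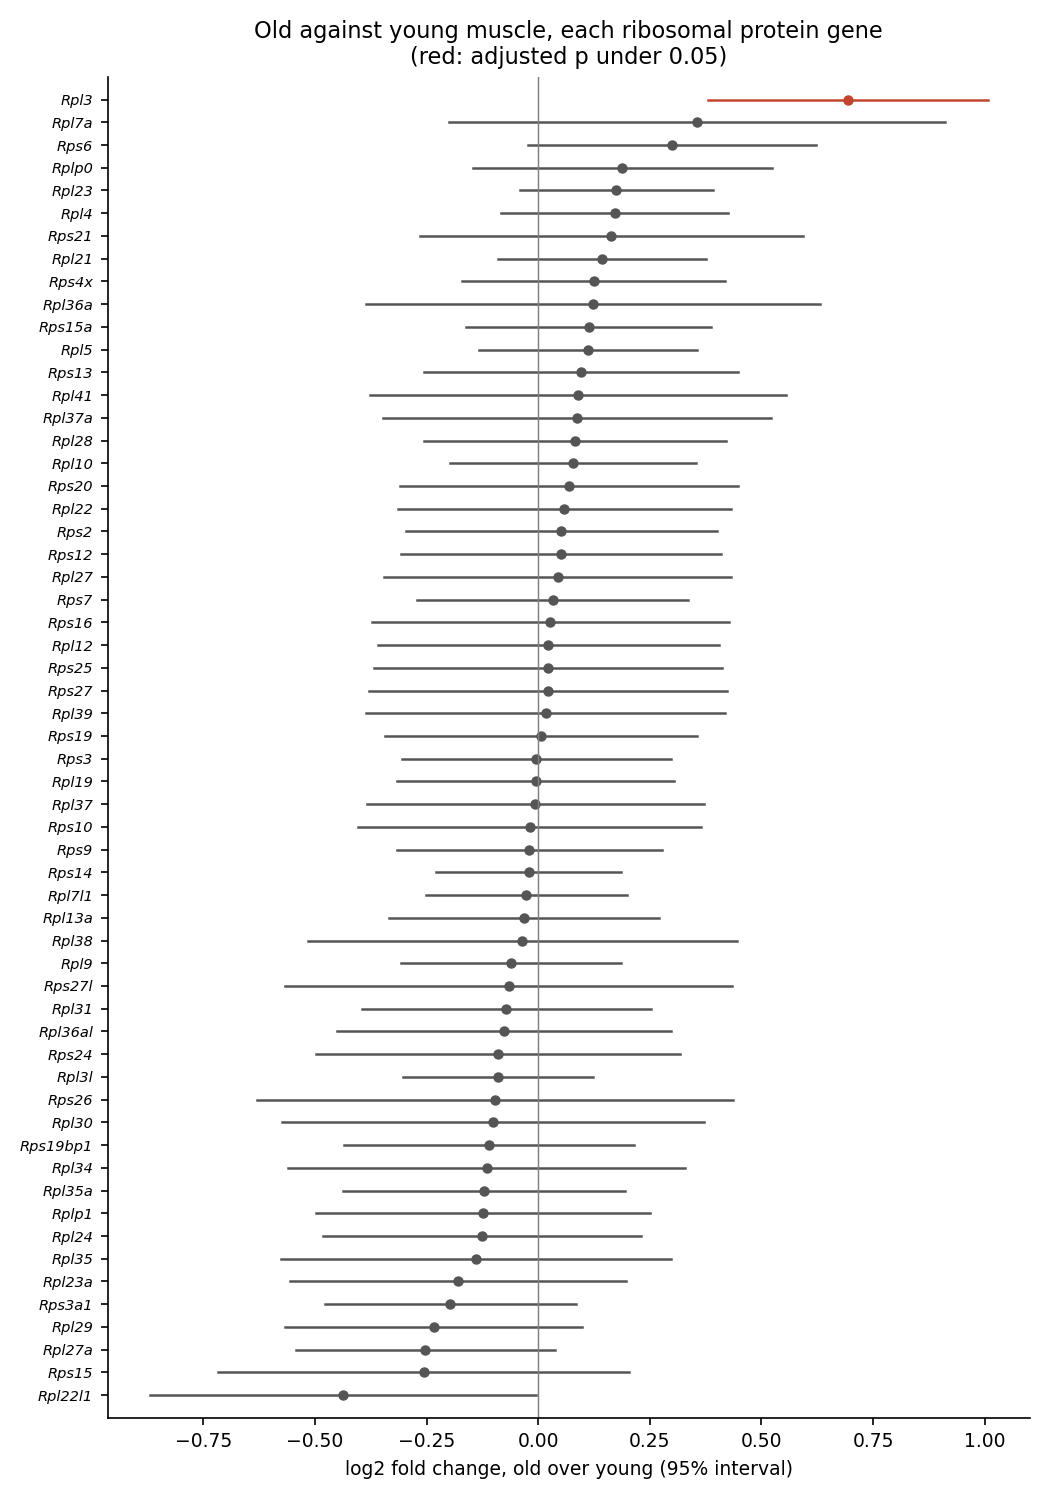
Log2 fold change of each of the 58 members, old over young, on the horizontal axis, with its 95% interval from limma as a bar. Red marks an adjusted p under 0.05. Only Rpl3, at 0.69, lies past the threshold, and the other members lie between -0.44 and 0.36.

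Rpl3 is a large protein of the large subunit that lies close to the catalytic centre. In young muscle its log2 level was 10.76, 10.72, 10.75, 10.90 and 10.64. In middle-aged muscle it was 10.62, 10.77, 10.82, 10.41 and 11.02, and in old muscle 11.73, 11.50, 11.45, 11.69 and 10.87. Old mice 1 to 4 lay above every young and middle-aged mouse, while old mouse 5 lay among them. Rpl3 was 1.62-fold higher in old than in young muscle (log2 0.69 ± 0.15, SE, n = 5 each, 95% interval 0.38 to 1.01, adjusted p = 0.0162 by limma). It was 1.65-fold higher in old than in middle-aged muscle (log2 0.72 ± 0.15, adjusted p = 0.0415). Middle-aged and young muscle differed by -0.03 ± 0.15 (95% interval -0.34 to 0.29). The later step minus the earlier one, 0.74 ± 0.26, had an adjusted p of 0.973 over all features, so the steps were not shown to differ. In that contrast no member was called, where 0.0211% of all features were.

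The rise against young muscle was called whichever single array was left out (adjusted p between 0.000544 and 0.0485), and most firmly without old mouse 5, where the log2 difference was 0.84. It was not called with arrays scaled to a common median (0.62, adjusted p = 0.155), with each array centred on the median of the ribosomal protein genes (0.75, adjusted p = 0.202) or by the test of the study's methods after Benjamini-Hochberg adjustment. The rise against middle-aged muscle was less secure: its call was lost on leaving out any 1 of 12 arrays (adjusted p between 0.0596 and 0.17), and held only without middle-aged mouse 5, old mouse 3 or old mouse 5. It was also lost with median scaling, with centring, with no detection filter or a stricter one, with these ages fitted alone, without the intensity trend and with a replicate block (adjusted p between 0.051 and 0.479), and by the adjusted test of the methods.

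The paralog Rpl3l was not called in any contrast. It is made in heart and skeletal muscle, where it takes the place of Rpl3 in part of the ribosomes. In young muscle its log2 level was 14.53, 14.51, 14.43, 14.32 and 14.44. It was 14.16, 14.19, 14.62, 14.45 and 14.45 in middle-aged muscle and 14.43, 14.32, 14.26, 14.39 and 14.37 in old muscle. The ages overlapped throughout. The log2 difference, old minus young, was -0.09 ± 0.10 (95% interval -0.30 to 0.12, adjusted p = 0.673), an interval that ends below the one of Rpl3. With the Z scores of the study's methods the estimate was 0.09, so its sign is not settled. The raw intensity of this probe lay between 15306 and 31533, on arrays whose brightest probe read between 37587 and 52425.

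The difference Rpl3 minus Rpl3l within each mouse was compared by an exact two-sided permutation test over the 252 ways to assign 10 mice to 2 groups, whose smallest possible p is 0.00794. It had a median of -2.81 in old muscle (between -3.49 and -2.70) and of -3.77 in young muscle (between -3.80 and -3.42). Probes differ in brightness, so the level of such a difference has no meaning on its own and only its change with age does. The means differed by 0.78 (exact p = 0.0159). Against middle-aged muscle, with a median of -3.54, the means differed by 0.74 (exact p = 0.0238), and between middle-aged and young muscle by 0.05 (exact p = 0.849). Over the 12 such comparisons, of 4 pairs in 3 contrasts, none passed Benjamini-Hochberg adjustment, and both differences for Rpl3 against Rpl3l had an adjusted p of 0.0952. Given the smallest possible p, no comparison could have passed alone, so this outcome does not show that a difference is absent. Rpl3 was put into this test after its rise was known.

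**Figure D2:**
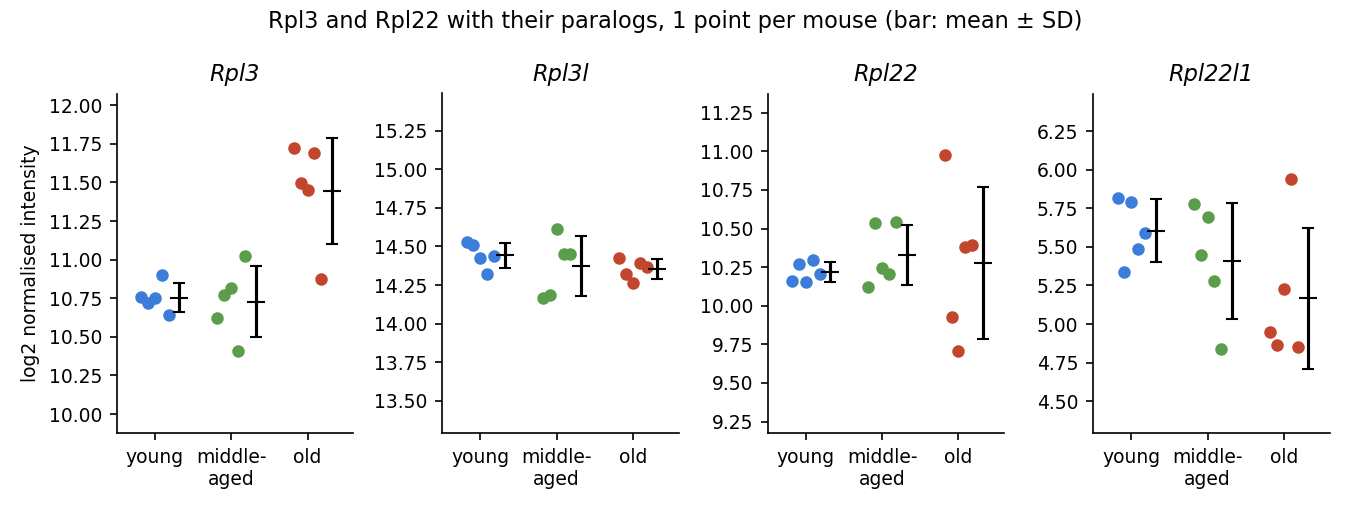
Log2 normalised intensity of Rpl3, Rpl3l, Rpl22 and Rpl22l1, 1 point per mouse and age group, with the mean and SD of 5 mice as a black bar; every vertical axis spans the same number of log2 units. In Rpl3, 4 of 5 old mice stand above all young mice, while in Rpl3l the ages overlap.

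Rpl22l1, the paralog of Rpl22, had the largest estimate downward. Mice that lack Rpl22 are viable, and Rpl22l1 is known to increase where Rpl22 is missing. Rpl22l1 read 4.95, 4.86, 5.23, 5.94 and 4.85 in old muscle, against 5.82, 5.34, 5.79, 5.49 and 5.59 in young muscle. Old mouse 4 was the highest of these and the other 4 old mice lay below every young mouse. The log2 difference of -0.44 ± 0.21 had a p of 0.0473 before and 0.257 after adjustment (limma, n = 5 each). The probe was dim, with raw intensities between 86.2 and 127.9, and was detected on 13 of 15 arrays. Rpl22 spread widely in old muscle, at 10.98, 9.93, 9.71, 10.38 and 10.39, against 10.16, 10.27, 10.15, 10.30 and 10.21 in young muscle. Its means differed by 0.06 ± 0.18. The difference Rpl22 minus Rpl22l1 did not separate old from young muscle (means 0.50 apart, exact p = 0.183).

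Among the remaining paralogs, Rps27 and Rps27l, whose products are near-identical small subunit proteins, differed by 0.02 ± 0.19 and -0.07 ± 0.24 between old and young muscle. Their difference was 0.22 lower in middle-aged than in young muscle (exact p = 0.0238, adjusted 0.0952) and 0.31 higher in old than in middle-aged muscle (exact p = 0.0476, adjusted 0.143). Rpl36a and Rpl36al, copies of one protein on different chromosomes, gave 0.12 ± 0.24 and -0.08 ± 0.18. Rpl7l1, a relative of Rpl7, gave -0.03 ± 0.11, and Rpl39, whose testis paralog Rpl39l was not detected, gave 0.02 ± 0.19. None of these passed the test in limma, and the signs for Rps27, Rpl39, Rps27l, Rpl36al and Rpl7l1 changed with the scaling or the arrays used.

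Of the other members, Rps6, the small subunit protein that S6 kinases phosphorylate when growth signalling is active, had the lowest p upward after Rpl3. It read 11.95, 11.69, 11.23, 11.37 and 11.61 in old muscle, against 10.97, 11.34, 11.36, 11.46 and 11.21 in young muscle, with 3 old mice above all young ones. The log2 difference was 0.30 ± 0.15 (95% interval -0.02 to 0.62, adjusted p = 0.298 by limma). Rpl23, a large subunit protein that also binds Mdm2, gave 0.18 ± 0.10. Downward, after Rpl22l1, came the large subunit genes Rpl27a at -0.25 ± 0.14 and Rpl29 at -0.23 ± 0.16. A dimmer probe for Rpl29 gave 0.23, so the sign for this gene depended on the probe. The stalk gene Rplp0 gave 0.19 ± 0.16 and Rplp1 gave -0.12 ± 0.18 (0.13 with Z scores), and Rpl10, which completes the large subunit late in assembly, gave 0.08 ± 0.13. Before adjustment, 1 member had a p under 0.05 upward (Rpl3) and 1 downward (Rpl22l1), where 8.69% of all features had one upward and 10.2% downward.

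Old and middle-aged muscle differed in the same single member, Rpl3, at 1 of 58 called, where 0.327% of all features were called and 0.264% were called higher. None was called lower, where 0.0634% of all features were. Before adjustment 2 members had a p under 0.05 upward and 0 downward, where 5.46% and 6.75% of all features had one. In no member did the ages separate without overlap, where 0.686% of all features did so upward and 0.813% downward. The median over members was 0.06, with 41 estimates above 0 and 17 below, beside -0.02 over all features, and it was -0.03 with median scaling and 0.14 with Z scores. After Rpl3 the lowest p upward belonged to the small subunit gene Rps15a, which read 7.57, 7.22, 7.64, 7.38 and 7.61 in old muscle, against 7.23, 7.16, 7.29, 7.22 and 6.90 in middle-aged muscle. Old mouse 2 lay among the middle-aged mice and the other 4 above them. The log2 difference of 0.32 ± 0.13 had an adjusted p of 0.332 (limma). Rps27 gave 0.30 ± 0.19. The lowest p downward were those of Rpl27a (-0.23 ± 0.14), Rpl7a (-0.36 ± 0.26) and Rpl22l1 (-0.24 ± 0.21), with adjusted p-values between 0.519 and 0.654.

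Between middle-aged and young muscle no member was called, where 0.0106% of all features were called higher and none lower. Before adjustment 1 member had a p under 0.05 upward and 1 downward, where 2.98% and 2.08% of all features had one, and no member separated the ages without overlap, where 1.56% did so upward and 0.898% downward. The median was -0.06, with 16 estimates above 0 and 42 below, beside -0.0025 over all features, and it was 0.03 without middle-aged mouse 5 and old mouse 3, which are described below. Rpl7a had the largest estimate of any member in this comparison. Its product is a large subunit protein that binds ribosomal RNA. It read 9.48, 9.64, 8.75, 9.66 and 8.80 in middle-aged muscle, against 8.28, 8.50, 8.45, 8.57 and 8.93 in young muscle. Mice 1, 2 and 4 of the middle-aged group lay above all young mice and the other 2 overlapped with young mouse 5. The log2 difference of 0.72 ± 0.26 had a p of 0.014 before and 0.79 after adjustment (limma), but was called when arrays were weighted by their fit to the model (0.88, adjusted p = 0.0189). For the same gene, old muscle spread over the whole range, at 9.02, 8.57, 7.96, 9.26 and 9.70. Upward next were Rps6 (0.19 ± 0.15) and Rpl23 (0.10 ± 0.10). Downward were Rpl35a (-0.32 ± 0.15), Rpl24 (-0.31 ± 0.17) and Rpl29 (-0.27 ± 0.16), all of the large subunit and none with an adjusted p under 0.972. For the later step minus the earlier one the 3 members with the lowest p were Rpl3, Rpl7a (-1.08 ± 0.46) and Rps15a (0.53 ± 0.23), all with an adjusted p of 0.973. Before adjustment 2 members had a p under 0.05 upward and 1 downward there, where 2.01% and 2.54% of all features had one.

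Single arrays stood further apart than the ages did. For each array the median over the 58 members of the level minus the gene's mean over all 15 arrays was taken. It was 0.04, 0.03, 0.04, 0.06 and -0.03 in young mice 1 to 5. In middle-aged mice it was 0.04, 0.18, 0.02, 0.01 and -0.43, and in old mice 0.18, 0.02, -0.48, 0.24 and 0.17. Middle-aged mouse 5 and old mouse 3 thus stood far below the rest, and in each age 4 of 5 arrays stood above 0. The subunits moved together: on middle-aged mouse 5 the median was -0.43 for the large subunit and -0.44 for the small one, and on old mouse 3 it was -0.48 and -0.54. After median scaling these arrays were still lowest, at -0.67 and -0.66, but old mouse 2 stood at -0.44. With Z scores, put on a log2-like scale, they were at -0.31 and -0.46, and the next lowest was middle-aged mouse 4 at -0.19.

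**Figure D3:**
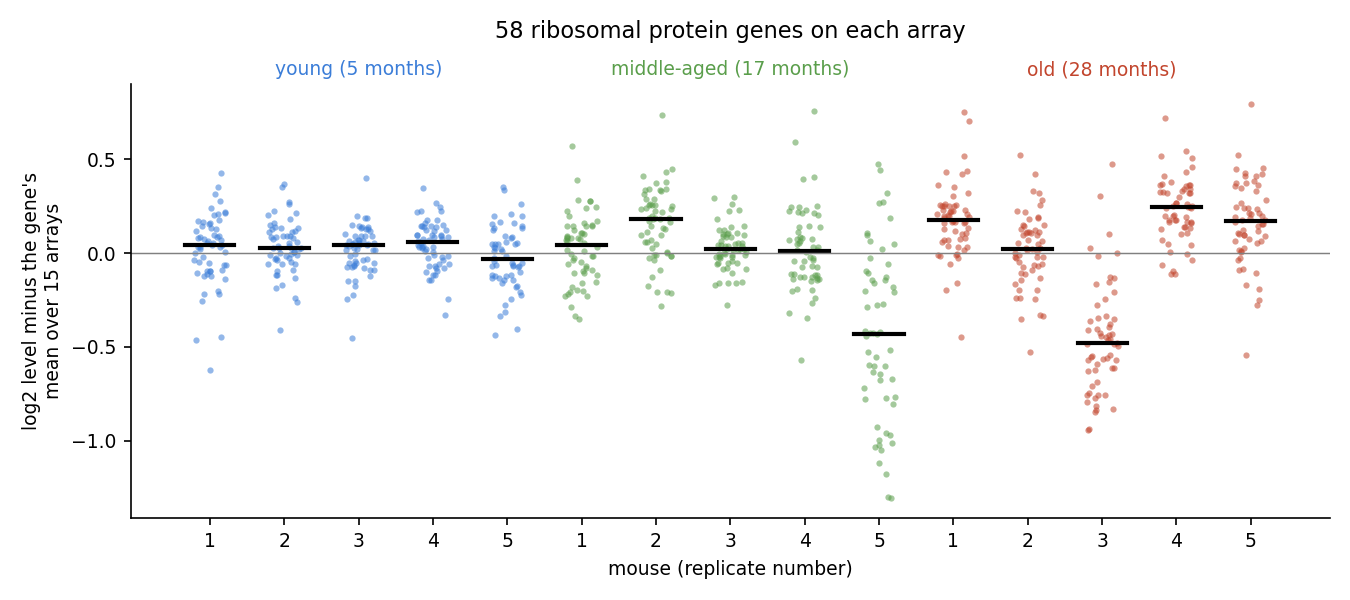
Log2 level of each of the 58 members on each of the 15 arrays, as the difference from that gene's mean over all arrays, with the median of the members as a black bar. The medians of middle-aged mouse 5 (-0.43) and old mouse 3 (-0.48) lie below those of the other 13 arrays, which lie between -0.03 and 0.24.

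Old mouse 3 was the lowest of all 15 arrays for 24 of the 58 members (41.4%), to be read beside its 26.9% of all features. Middle-aged mouse 5 was the lowest for 23 members (39.7%) and for 7.77% of all features. At the other end, old mouse 4 was the highest for 18 members, where it was the highest for 5.21% of all features, and old mouse 5 for 11, where it was the highest for 9.74%. The low arrays lay within the range of the others in mean raw intensity (379 on middle-aged mouse 5 and 408 on old mouse 3) and in probes detected (12003 and 12029), and the median of the muscle fibre markers lay 0.17 and 0.13 above the mean of all arrays. Some marker lists of other cell types were highest on one of them. Old mouse 3 had the highest median of the satellite cell and regenerating fibre markers, at 1.05, against 0.05 to 0.35 on the other old arrays. The fat cell markers stood at -1.08 there, but lower still on young mouse 4 (-1.13). Middle-aged mouse 5 had the highest medians of the fat cell markers (1.76, 4 of 8 measured) and of the Schwann cell markers (0.52, 3 of 7 measured) of all 15 arrays. The next highest fat cell median was 1.26, on middle-aged mouse 1. The fat cell list, whose markers Fabp4 and Retn were detected on no array, summed to between 8088 and 17740 in old muscle, between 4340 and 22170 in middle-aged muscle and between 4691 and 9403 in young muscle. The Schwann cell list summed to between 565 and 995 in old muscle, between 666 and 1082 in middle-aged muscle and between 580 and 893 in young muscle. The part of these cells in the low ribosomal protein levels was not tested. Whether RNA quality differed on these arrays was not tested, since the files hold no measure of it.

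Each low array was next set against the other 4 arrays of its own age. On old mouse 3 the median over members was -0.62, beside -0.12 over all features, and 53 of 58 members were lower. On middle-aged mouse 5 it was -0.56, beside -0.03, and 47 members were lower. Both differences were below -0.5 for 29 members (50%), for 6.05% of all features and for 8.62% of the 975 other features at or above the lower quartile of the members' levels. The share was 29.6% in the nuclear genes of oxidative phosphorylation and 17.1% in those of mitochondrial ribosomal proteins. In the genes outside the ribosome known to carry TOP tracts it was 0%. Across the 58 members the differences on these arrays had a Pearson correlation of 0.437 (Spearman 0.451), and across all features of 0.222. The Pearson correlation was 0.542 across the nuclear genes of oxidative phosphorylation and 0.493 across those of mitochondrial ribosomal proteins. It was 0.443 across the TOP genes outside the ribosome and 0.331 across the 975 other features. A correlation of this size was thus not particular to the members. Genes are not independent replicates, so these values are given as a description. The arrays were picked for their low medians, so how low they were is likewise a description.

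The decrease was far from even among members. It was deepest for Rps26, a small subunit protein at the exit of the messenger RNA channel, which read 11.05 on middle-aged mouse 5 against 12.50, 12.58, 12.44 and 12.60 on the other middle-aged arrays. On old mouse 3 it read 11.60, against 12.51, 12.30, 12.72 and 12.70 on the other old arrays. Rpl38, a small protein at the surface of the large subunit, read 12.77 on middle-aged mouse 5 against 14.15, 14.31, 14.16 and 14.29, and 13.63 on old mouse 3 against 14.20, 14.14, 14.32 and 14.31. For both genes these arrays were the lowest of all 15. By the mean of both differences, after Rps26 (-1.22) and beside Rpl38 (-1.03), the lowest were Rpl36a (-1.09), Rps27l (-1.06), Rpl34 (-1.01), Rpl30 (-0.97), Rps15 (-0.95), Rpl37a (-0.94), Rpl41 (-0.94) and Rps21 (-0.92). These members and the next ones were named after their values were seen. Fau, whose product is cleaved into a small subunit protein and a ubiquitin-like part and which the symbol rule left out, was lower by similar amounts (-0.95 on old mouse 3 and -0.92 on middle-aged mouse 5).

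At the other end of that order, Rpl3 (0.19) and Rpl7l1 (0.15) were higher on average on the low arrays. Rps2, a small subunit protein at the entrance of the messenger RNA channel, was 0.63 higher on middle-aged mouse 5 and 0.38 lower on old mouse 3. Rps6 was 0.55 higher and 0.43 lower, and Rplp0 0.44 higher and 0.36 lower. Rpl5, which carries the small ribosomal RNA of the large subunit, was 0.42 higher and 0.24 lower. Rpl3l was 0.10 higher and 0.12 lower. On middle-aged mouse 5, then, some members were higher and most lower, while on old mouse 3 nearly all were lower. Among the tested genes with a tract at the start, only Rps6 lay above 0 on average (0.06). The others lay between Rps15a (-0.07) and Rpl38 (-1.03), with Rps21 (-0.92) and Rpl35 (-0.92) also among the lowest. Most tested members without such a tract at a listed start lay below 0 as well. Among them Rps26 (-1.22), Rpl36a (-1.09) and Rps27l (-1.06) lay below Rpl38. The part of the tract in this order was not tested.

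**Figure D4:**
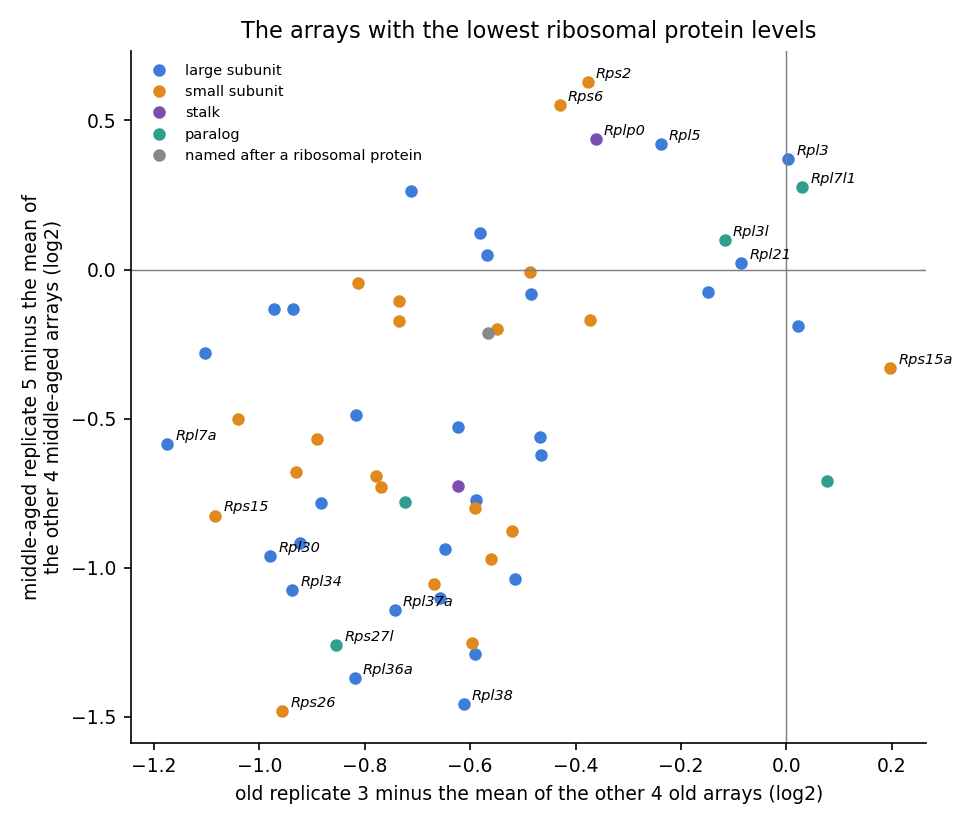
Log2 difference of old mouse 3 from the other 4 old arrays on the horizontal axis and of middle-aged mouse 5 from the other 4 middle-aged arrays on the vertical axis, 1 point per member, coloured by class. Points gather in the lower left, with 29 of 58 below -0.5 on both, while Rps2, Rps6, Rplp0 and Rpl5 lie above 0 on middle-aged mouse 5.

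Probes that did not stand for their gene gave a second reading of this pattern. There were 11 such probes for 10 members. All 11 were lower on old mouse 3 than the mean of the other old arrays, as were 5530 of 9470 features. On middle-aged mouse 5, 8 were lower than the mean of the other middle-aged arrays, as were 5019 features. The second probes of Rpl7l1 (0.52), Rpl21 (0.24) and Rps3 (0.24) were higher there, where the first probe of Rps3 was at -0.17. The sign matched that of the first probe for 8 of 11 on old mouse 3 and 10 of 11 on middle-aged mouse 5. The second probe of Rpl38 differed by -1.06 on old mouse 3 and -1.54 on middle-aged mouse 5, where the first differed by -0.61 and -1.46. For Rpl23, whose brightest probe was at 0.02 on old mouse 3, the other probes were at -0.47 and -0.82. The second probe of Rpl7l1 was at -0.55 on old mouse 3, where the first was at 0.03. The second probes of Rps19 and Rps24 moved less than the first, with raw medians of 89.8 and 99.7, within the range of the arrays' median over all probes or just above it.

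**Figure D5:**
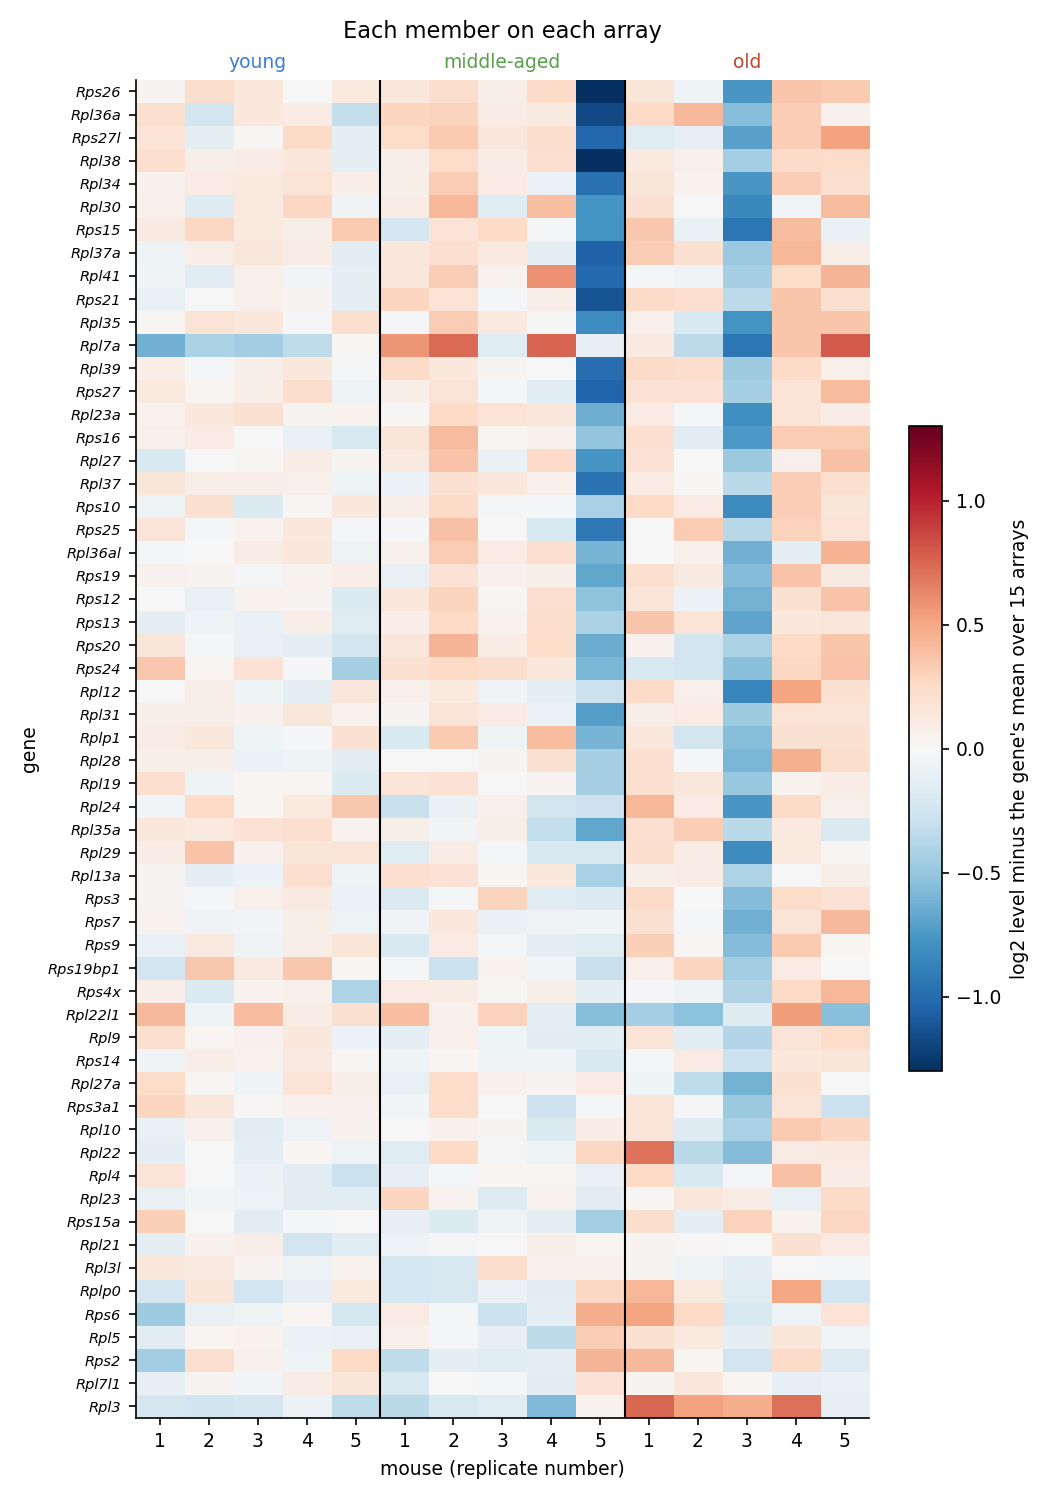
Each of the 58 members (rows) on each of the 15 arrays (columns, by age and replicate), coloured by the log2 level minus the gene's mean over all arrays; rows run from the member most lowered on middle-aged mouse 5 and old mouse 3 to the least. Those columns are blue over most rows, and the bottom row, Rpl3, is reddest on old mice 1 to 4.

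The spread within ages was smaller without these arrays. The within-group SD had a median of 0.29 over members, beside 0.25 over all features. Without the low pair it was 0.15 over members, beside 0.20 over all features. Leaving both out, 49 of 58 members had an estimate above 0 in old against young muscle, with a median of 0.13, beside 47.6% of all features and a median of -0.01. Then 2 members were called higher, Rpl3 (0.70, adjusted p = 0.0108) and the small subunit gene Rps21 (0.29, adjusted p = 0.0445), where 3.5% of all features were called higher. Rps21 read 13.08, 13.04, 13.19 and 13.04 on old mice 1, 2, 4 and 5 and 12.49 on old mouse 3, against 12.73, 12.83, 12.89, 12.86 and 12.70 in young muscle, so old mouse 3 alone lay below the young range. With all arrays its difference was 0.16 (adjusted p = 0.707). Against middle-aged muscle 45 of 58 estimates were above 0, with a median of 0.09, beside 47.2% of all features and a median of -0.02. Rpl3 was called (0.80, adjusted p = 0.0213), where 0.708% of all features were called higher. Since these arrays were left out for their ribosomal protein levels, and leaving them out raises the mean of their age, the values are a description of the remaining 13 mice.

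Other gene lists were set beside the members on the low arrays. On old mouse 3 the 70 measured genes of mitochondrial ribosomal proteins had a median of -0.50 and the 71 measured nuclear genes of oxidative phosphorylation one of -0.42, against the other old arrays. On middle-aged mouse 5 these medians were -0.05 and -0.50, against the other middle-aged arrays. The 16 measured genes outside the ribosome that are known to carry TOP tracts, such as elongation factors and Tpt1, had medians of 0.14 and 0.27 on old mouse 3 and middle-aged mouse 5 against the other arrays of the same age. With age itself, Mrps22 of the small mitochondrial subunit fell in old against young muscle (-0.40 ± 0.11, adjusted p = 0.0488 by limma). That is 1 of 70 measured genes of its list, where 1.58% of all features were called lower. The median of the list was -0.16, with 59 of 70 estimates below 0. In both contrasts with old muscle none of the 42 measured ribosome assembly factors, the 13 measured genes of RNA polymerase I, which transcribes ribosomal RNA, the 11 measured elongation and termination factors and the 10 measured regulators of ribosomal protein synthesis was called. Of all features, 3.31% were called in old against young muscle and 0.327% in old against middle-aged muscle. The medians of these lists in old against young muscle were 0.05, -0.04, -0.02 and 0.03.

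Markers of other cell types also differed between old and young muscle, where 1.72% of all features were called higher and 1.58% lower. All 13 measured macrophage markers of 15 had an estimate above 0 in old against young muscle and 5 rose (Lgals3, Lyz2, Fcgr3, C1qb and Adgre1), among them Lgals3 (2.93-fold) and Lyz2 (2.23-fold). The summed normalised intensity of the list ran between 3090 and 5587 in old muscle, between 2134 and 3261 in middle-aged muscle and between 1739 and 2610 in young muscle. Of the satellite cell and regenerating fibre markers 5 of 10 were measured, and Myh8 (4.25-fold) and Ncam1 (2.07-fold) rose. Their sums ran between 2849 and 3404 in old muscle, between 2082 and 2709 in middle-aged muscle and between 2595 and 3013 in young muscle, and the defining markers Pax7 and Myf5 were detected on no array. Of the fibroblast markers 7 of 10 were measured, 5 with an estimate below 0 and 2 above, and Col1a1, Col1a2 and Thy1 fell. That list summed to between 8769 and 14188 in old muscle, between 12215 and 16245 in middle-aged muscle and between 11666 and 15981 in young muscle. None of 10 T and B cell markers passed the filter. In old mice 1 to 5 the macrophage median, relative to the mean of all arrays, was 0.91, 0.61, 0.05, 0.44 and 0.53. Rpl3 read 11.73, 11.50, 11.45, 11.69 and 10.87 in the same order. The part of these cells in the Rpl3 difference was not tested.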

How the data were processed

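The authors hybridised RNA of the gastrocnemius to Illumina MouseRef-8 bead arrays, 1 per mouse, and deposited raw intensity values read with GenomeStudio 2011.1, with no background subtraction or scaling. They deposited a detection p-value beside each intensity, and a Z score per probe, the natural log intensity minus the array's mean over its standard deviation. Recomputed scores matched the deposited ones within 0.000924. For the estimates and medians given with Z scores, the scores were multiplied by the mean over arrays of the SD of log2 intensity. This puts them on a log2-like scale. Probe names came from the platform's GEO annotation, in which 23978 of 25697 probes had 1 symbol, none several and 1719 none.

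Intensities were background-corrected from the detection p-values (normexp, offset 16), quantile-normalised and put on the log2 scale with limma 3.58.1 in R 4.3.3. Of the probes, 12552 passed the detection filter, which left 9470 features. All 15 arrays entered 1 model with a mean per age, and moderated two-sided tests (lmFit, then eBayes with trend) were adjusted by Benjamini-Hochberg over all features of a contrast and called at an adjusted p under 0.05. The model was tested on simulated data with independent noise for each gene and array. Such data hold no shift of many genes on an array, so the test does not cover that case. The limma p-values set each difference against the spread between arrays of an age, pooled over the ages and moderated across features. That spread holds both biological and technical error.

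Members and gene lists were chosen with earlier results of these data known, including the low medians of old replicate 3 and middle-aged replicate 5. Genes named are, per pairwise contrast, called members and the 3 with the lowest p in each direction, for the difference between the steps the 3 with the lowest p, a set of stalk genes and paralogs, and up to 4 called genes of each other list by lowest p. Mouse replicate numbers in the text are those of the labels. Alternatives were other background corrections, scalings, filters, probe rules, models, single arrays left out and the t-test of the study's methods.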

Additional observations from a re-analysis of the deposited data

Results flagged for a closer look

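Of 66 groups of 5 arrays, 8 had a lowest array whose gap to the next, over the range of the group, was past Dixon's critical value. For independent groups chance gives about 1 in 20. These groups share the same 15 arrays and 2 of those arrays were known to be low, so the count is a description and not evidence beyond it. All 8 were on middle-aged mouse 5 or old mouse 3. On middle-aged mouse 5 the median of the ribosomal protein genes was -0.43, against 0.01 to 0.18 on the other middle-aged arrays. The log2 level of Rps27 was 12.22 there against 13.10 to 13.42, that of Rps27l 11.92 against 13.08 to 13.28, that of Rpl39 12.01 against 13.00 to 13.24 and that of Rpl36a 9.47 against 10.74 to 10.93. On old mouse 3 the log2 level of Rpl29 was 10.34 against 11.17 to 11.38 on the other old arrays, that of Rps27 12.82 against 13.43 to 13.66 and that of Rpl39 12.54 against 13.06 to 13.25.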

How the results depend on the processing

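Old against young: the features called were 313, and 136 with median scaling, 52 with each array centred on the ribosomal protein median, 178 with these groups alone, 872 with array weights, 583 without old replicate 3 and middle-aged replicate 5, 516 at the threshold of the methods' t-test and 24 after its Benjamini-Hochberg adjustment. Leaving out 1 array gave 152 to 713: 193, 198, 201, 183 and 152 without young replicates 1 to 5, and 195, 170 and 713 without old replicates 1, 4 and 5. Members called were 1, and 0 with median scaling, with centring and after the adjusted t-test, and 2 without the low pair. With median scaling 86 calls were higher and 50 lower, with centring 36 and 16, against 163 and 150. Rpl3 lost its call with median scaling (adjusted p = 0.155) and centring (0.202).

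Old against middle-aged: the features called were 31, and 8 with centring, 16 when detected on all arrays, 15 with these groups alone, 470 with array weights (206 higher and 264 lower, against 25 and 6), 101 without the low pair, 274 at the methods' threshold and 1 after its adjustment. With Z scores 23 were higher and 10 lower. Leaving out 1 array gave 15 to 306: 20, 19, 15 and 68 without middle-aged replicates 1, 2, 4 and 5, and 54, 59, 17 and 306 without old replicates 2 to 5. Members called were 1, between 0 and 1 with 1 array left out, and 0 with median scaling, centring, no detection filter, the all-array filter, these groups alone, no intensity trend, the replicate block and the adjusted t-test. The adjusted p of Rpl3 was then 0.35, 0.479, 0.051, 0.0574, 0.238, 0.0522 and 0.133 in that order up to the block.

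Middle-aged against young: the features called were 1, and 2 with centring, with every probe its own feature, with the replicate block and without the low pair, 17 with these groups alone, 77 with array weights and 341 at the methods' threshold. Leaving out 1 array gave 1 to 5 (2 without young replicate 3 or old replicate 3, 4 without middle-aged replicate 4, 5 without old replicate 5). Members called were 0, 1 with array weights (Rpl7a, 0.88, adjusted p = 0.0189) and 3 at the methods' threshold (Rpl7a higher, Rpl24 and Rpl29 lower). Later minus earlier step: the features called were 2, and 5 without background correction, with an offset of 50 and with either Z score, 0 with centring and without the low pair, 1 with the all-array filter, 16 with array weights, and 0 to 8 with 1 array left out (4 without young replicate 3, 8 without old replicate 5).

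Uncalled members whose old against young estimate changed sign were Rpl22 (-0.018), Rps27 (-0.070), Rpl39 (-0.057) and Rpl10 (-0.011) with median scaling, Rplp1 (0.13), Rpl3l (0.091) and Rpl36al (0.0039) with Z scores, Rpl7l1 with centring (0.025) and with the mean of its probes (0.049), Rplp1 (0.015) and Rps27l (0.044) with array weights, and Rplp1 (0.0044), Rps27l (0.11) and Rpl36al (0.069) without the low pair. With 1 array left out the estimates ran between -0.12 and 0.20 for Rpl22, -0.054 and 0.16 for Rps27, -0.030 and 0.15 for Rpl39, -0.064 and 0.0033 for Rpl7l1, -0.19 and 0.0046 for Rplp1, -0.20 and 0.10 for Rps27l and -0.20 and 0.069 for Rpl36al. Rpl23 in middle-aged against young muscle was -0.014 with the mean of its probes. The cause of these changes was not tested. Same-numbered mice of different ages did not vary together (correlations of deviations between -0.497 and 0.403 over 15 pairs, 5 of 15 arrays correlating best with their own number), so the replicate block has no known meaning.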
